A study of Homo sapiens with 7 samples.

Results

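The genes described here are 29 genes of cholesterol synthesis, of its control by the sterol regulatory element binding proteins (SREBPs) and of sterol transport. They were chosen by gene name and known role, from 36337 gene names on the array. Of the 29 genes, 18 encode enzymes of the pathway, 7 encode regulators and 4 encode proteins of sterol transport, uptake control or efflux. The cells were HCT116, a near-diploid human colon carcinoma line, carrying a fusion of histone H2B with GFP (HCT116 H2B-GFP). All cells measured here had received bafilomycin A1 at 10 nM for 30 h, and 4 replicate cultures were each measured on 1 single-colour Agilent array. The 3 untreated samples of the line were not analysed here, so the values describe the treated cells and their spread between replicates, and no gene is called raised or lowered by the treatment. The labels give 10% serum and the methods give 5%, and serum supplies the lipoproteins from which cultured cells take up cholesterol.

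Cells obtain cholesterol by making it from acetyl-CoA through mevalonate, squalene and lanosterol, and by taking up lipoproteins that are broken down in the lysosome. When sterols in the endoplasmic reticulum are low, SCAP escorts the SREBPs to the Golgi apparatus, where proteases release the transcription factors, and when sterols are high the INSIG proteins hold SCAP back. Bafilomycin A1 inhibits the vacuolar proton pump that acidifies the lysosome.

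The results below turn on how single probes behaved, so the sequences of some probes are shown first, each as the array files give it and read 5′ to 3′. The coordinates are those of GRCh37 in the files, and the files do not say whether a position is coding. The probes of MVD and TM7SF2 are shown because these enzymes were lowest on the array on which most other sterol genes were highest under the scaling used here. The 3 probes of HSD17B7 are those listed on its RefSeq transcript, and the ABCA1 probe belongs to the member with the weakest detection.
MVD, chr16:88718985-88719738, minus strand: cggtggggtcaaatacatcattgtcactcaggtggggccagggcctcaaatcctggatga
TM7SF2, chr11:64880991-64881050, plus strand: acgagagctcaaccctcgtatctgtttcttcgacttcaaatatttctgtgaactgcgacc
HSD17B7 probe A_33_P3276369, chr1:162762509-162762568, plus strand: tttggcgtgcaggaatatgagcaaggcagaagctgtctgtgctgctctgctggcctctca
HSD17B7 probe A_33_P3225487, chr1:162769658-162769717, plus strand: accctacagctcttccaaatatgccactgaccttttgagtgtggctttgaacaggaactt
HSD17B7 probe A_23_P11859, chr1:162773299-162774089, plus strand: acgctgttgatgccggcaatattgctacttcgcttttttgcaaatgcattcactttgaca
ABCA1 probe A_33_P3422897, chr9:107624012-107624071, minus strand: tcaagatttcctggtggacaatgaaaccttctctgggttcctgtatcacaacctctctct
All 6 probes are 60 bases long. The MVD probe covers 754 bases of the genome and HSD17B7 probe A_23_P11859 covers 791, as probes across a splice junction do.

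Promoter sequence of 2 regulators shows letters through which the pathway is known to be read. Windows from 250 bases before to 50 bases after the start were at hand for 25 of the 29 genes in the RefSeq table of GRCh38.p14, and only bases before the start are printed. Capitals mark the letters of the sterol element core, the E box and CCAAT on either strand, while the GC box GGGCGG is left in lower case. ATTGG is CCAAT read on the other strand, and TCACGTGAT is ATCACGTGA.
SREBF2, chr22:41832957-41833018, plus strand: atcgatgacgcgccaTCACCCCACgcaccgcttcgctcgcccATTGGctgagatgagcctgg
INSIG1, chr7:155297693-155297845, plus strand: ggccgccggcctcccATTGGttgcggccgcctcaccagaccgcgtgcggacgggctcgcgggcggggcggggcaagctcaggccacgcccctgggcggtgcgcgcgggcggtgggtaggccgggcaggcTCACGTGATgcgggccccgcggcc
The letters TCACCCCAC, the core of the sterol response element, began 133 bases before the start of SREBF2, and the window of SREBF2 was the only 1 of 25 to hold them, against 0.535% of 27305 genes with a window. The letters ATCACGTGA, an E box of the sterol type, began 56 bases before the start of INSIG1, the only 1 of 25, against 0.308% of all. CCAAT stood in 16 of the 25 windows (64% against 39.7% of all), and GGGCGG, the GC box, in 21 (84% against 48.3%). These letters were chosen after matches had been looked at, and a match describes the sequence and not binding. Only exact matches were counted, so a window without a match is not shown to lack such an element.

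Of the 29 genes, 28 were well above background on all 4 arrays, as was 52.5% of all gene names. The exception was ABCA1. Detection of a gene required 1 or more probes that the scanner software called well above background on every array. All 18 enzymes and all 7 regulators passed, and 3 of the 4 transport genes did. Each value below is the log2 background-subtracted intensity of a gene relative to a median of the same array, which is 0. That median is over probes with a signal above 0 only. Relative to the median over all probes, the mean of each sterol gene was 1.09 higher. Levels of different genes come from different probes and were not set against each other. The 4 arrays lay on 1 slide, and between 55.6% and 60.4% of 58717 non-control spots per array were well above background. Spots marked as outliers numbered 2249 on replicate 3 and 514 to 725 on the others. Epithelial markers were detected for 6 of 7 genes, with VIL1 on no array, and markers of other cell types for 5 of 11.

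The enzymes that make farnesyl diphosphate from acetyl-CoA included both the steadiest and the most variable enzyme of the pathway. PMVK, which phosphorylates phosphomevalonate, had values of 5.53, 5.46, 5.49 and 5.47 on replicates 1 to 4, a mean of 5.49 ± 0.03 (SD, n = 4). All 4 arrays lay within 1.05-fold. ACAT2, the cytosolic thiolase that joins acetyl-CoA units, had values of 8.82, 8.85, 8.94 and 8.81 (8.86 ± 0.06). FDPS, which makes farnesyl diphosphate, had values of 9.98, 10.02, 10.08 and 9.90 (10.00 ± 0.08). The highest and the lowest array were at most 1.14-fold apart in these 3 enzymes, with FDPS the widest.

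MVD, which decarboxylates mevalonate diphosphate, had the largest SD among the 18 enzymes. Its values were 7.84, 7.80, 6.97 and 7.47 (7.52 ± 0.40, n = 4), with linear signals of 17716, 15582, 8792 and 11212. Replicate 3 was the lowest and replicate 1 the highest, 1.84-fold apart. Without replicate 3, MVD spanned 1.30-fold. IDI1, which isomerises isopentenyl diphosphate, had values of 7.30, 7.48, 7.85 and 7.34 (7.49 ± 0.25). Here replicate 3 was the highest, 1.46-fold above replicate 1. Replicate 3 was thus at opposite ends in MVD and IDI1. Among the other enzymes of this stretch, HMGCS1, which forms HMG-CoA, had a mean of 7.67 ± 0.12, and MVK, mevalonate kinase, of 9.25 ± 0.11. GGPS1, grouped with these enzymes here although it makes geranylgeranyl diphosphate for protein prenylation, had a mean of 1.42 ± 0.24 and spanned 1.45-fold. Its probe also lists a non-coding transcript.

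The gene values of the 3 enzymes from farnesyl diphosphate to lanosterol all stayed under 1.4-fold between arrays. The study's methods use that fold for another measure, the change between aneuploid and diploid lines. Here it is set against the highest over the lowest of 4 arrays of 1 group. FDFT1, squalene synthase, had a mean of 9.19 ± 0.18, and SQLE, squalene epoxidase, of 7.72 ± 0.14. LSS, which closes the sterol rings, had a mean of 6.06 ± 0.16 as the median of 2 probes. Its probes had means of 7.76 ± 0.22 and 4.36 ± 0.12 and both were highest on replicate 3. Taken alone, the stronger probe spanned 1.44-fold and the weaker 1.23-fold.

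Among the 7 enzymes after lanosterol, LBR and TM7SF2, which encode the sterol reductases acting on the same double bond, spread most and in opposite directions. LBR had values of 7.16, 7.28, 7.79 and 7.20 (7.36 ± 0.29), with replicate 3 the highest and a span of 1.55-fold. TM7SF2 had values of 6.16, 6.06, 5.64 and 5.69 (5.89 ± 0.26), with replicate 3 the lowest and a span of 1.44-fold. The remaining 5 enzymes spanned less than 1.4-fold under the scaling used here. CYP51A1, the lanosterol demethylase, had a mean of 8.42 ± 0.21, NSDHL of 7.93 ± 0.11, EBP, the sterol isomerase, of 10.16 ± 0.09, and DHCR7, which reduces the last double bond of cholesterol synthesis, of 10.90 ± 0.18.

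The TM7SF2 probe was printed as 10 spots per array, which shows how far spots of 1 array scattered. The SD of its single spots was 0.12 to 0.21 within an array, which gave the mean of an array a standard error of 0.039 to 0.067 from spot scatter alone. The SD between the array means was 0.26. For MBTPS2, also printed as 10 spots, this standard error was 0.042 to 0.064 and the SD between arrays 0.12, and for HSD17B7 probe A_23_P11859 they were 0.046 to 0.064 and 0.11. Spot scatter holds no difference between cultures, so these are descriptions of different errors.

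**Figure D1:**
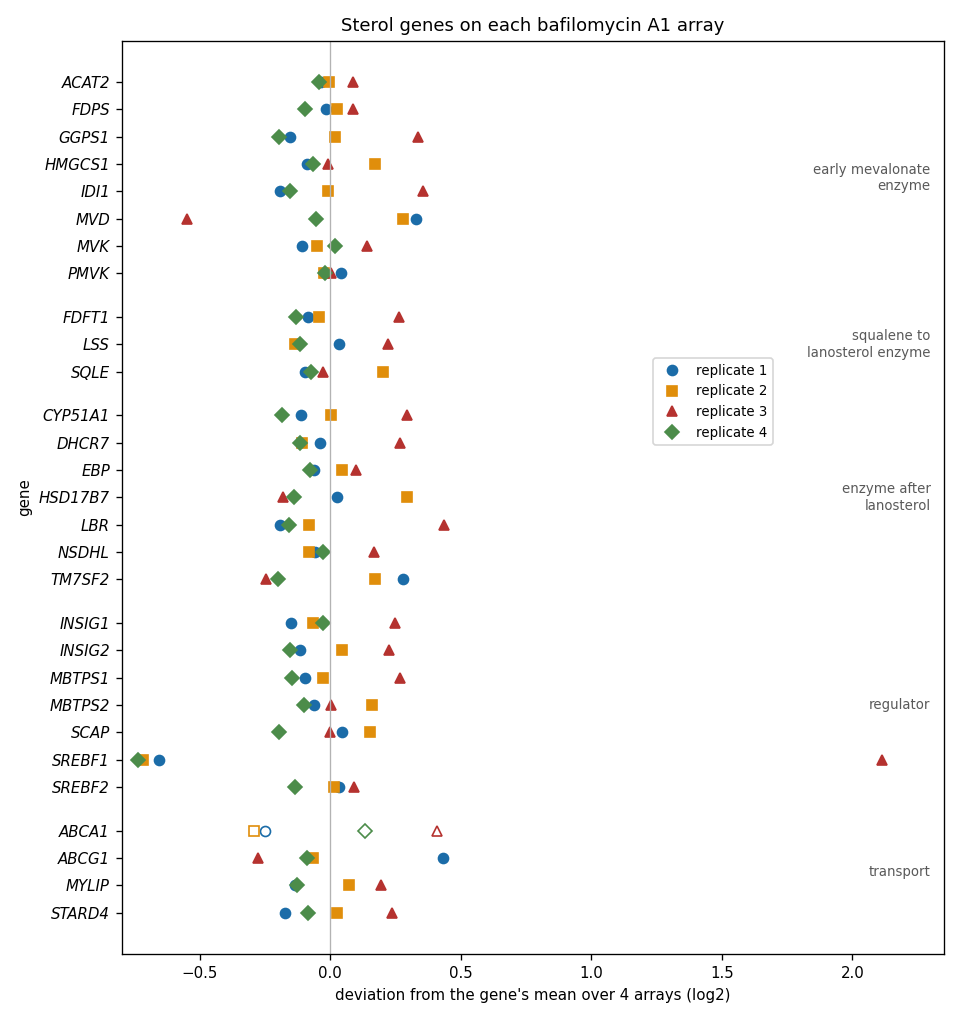
Deviation of each sterol gene from its own mean over the 4 arrays (x axis, log2) with 1 symbol per replicate array, genes in rows grouped by role, and hollow symbols for ABCA1, which was not well above background on all arrays. Replicate 3 lies to the right of 0 for 22 of the 28 detected genes and is the leftmost symbol for MVD, TM7SF2, HSD17B7 and ABCG1, and the SREBF1 symbol at the far right is its replicate 3.

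HSD17B7, the reductase of the keto group in sterol synthesis, was measured by 5 probes whose highest array differed. The gene had values of 4.51, 4.78, 4.30 and 4.34 (4.48 ± 0.21) and was highest on replicate 2 and lowest on replicate 3. On every array this value was that of probe A_33_P3276369, the middle of the 5. Probe A_33_P3225487 had a mean of 5.54 ± 0.13 and was also highest on replicate 2. Probe A_23_P11859 had a mean of 5.04 ± 0.11 and was highest on replicate 3, the array on which the gene value was lowest. The other two probes, each listed only on an Ensembl transcript, had means of 0.05 ± 0.50 and 0.10 ± 0.43, the former highest on replicate 3 and the latter on replicate 2. All 5 were well above background on 4 arrays. Probes A_33_P3276369 and A_33_P3225487 also list the transcribed pseudogene HSD17B7P2, so their signal cannot be assigned to HSD17B7 alone.

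The regulators were all detected, and the gene values of 6 of the 7 stayed under 1.4-fold under the scaling used here. SREBF2, the SREBP of the cholesterol program, had values of 6.49, 6.47, 6.55 and 6.32 (6.46 ± 0.10). SCAP had values of 5.47, 5.57, 5.42 and 5.23 (5.42 ± 0.14), with replicate 4 the lowest. INSIG1, itself a target of the SREBPs, had values of 8.45, 8.54, 8.85 and 8.58 (8.61 ± 0.17), and INSIG2 of 4.35, 4.52, 4.70 and 4.32 (4.47 ± 0.17). Both retention factors were highest on replicate 3. Of the 2 probes of INSIG2, 1 spanned 1.45-fold and the other 1.17-fold. MBTPS1, the protease that makes the first cut in an SREBP, had values of 6.62, 6.69, 6.98 and 6.57 (6.71 ± 0.19), and its 2 probes were both highest on replicate 3. MBTPS2, the protease of the following cut, had values of 0.42, 0.65, 0.49 and 0.38 (0.48 ± 0.12), with replicate 2 the highest. The zero is the median over probes with a signal above 0, and relative to the median over all probes its mean was 1.57.

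SREBF1, whose products drive the fatty acid arm of the program, had values of 6.37, 6.31, 9.14 and 6.29 (7.03 ± 1.41), a span of 7.22-fold. Replicate 3 lay far above the other 3 arrays, which were within 1.06-fold of each other. The probes behind it did not show this step. Probe A_23_P129786 had values of 9.15, 9.18, 9.14 and 9.03, within 1.11-fold, and probe A_33_P3222139 had 3.58, 3.43 and 3.54 on replicates 1, 2 and 4. The spot of the latter was marked as an outlier on replicate 3 and left out there, so the median over probes on that array was the value of the remaining probe. With outlier spots kept, SREBF1 had 6.37, 6.30, 6.27 and 6.29, an SD of 0.04 and a span of 1.06-fold. SREBF1 was the 1 detected sterol gene of 28 whose number of probes with a value differed between arrays, as it did in 8.42% of all detected genes. It was also the 1 gene of 28 with an array apart by Dixon's ratio, against 8.48% of all.

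**Figure D2:**
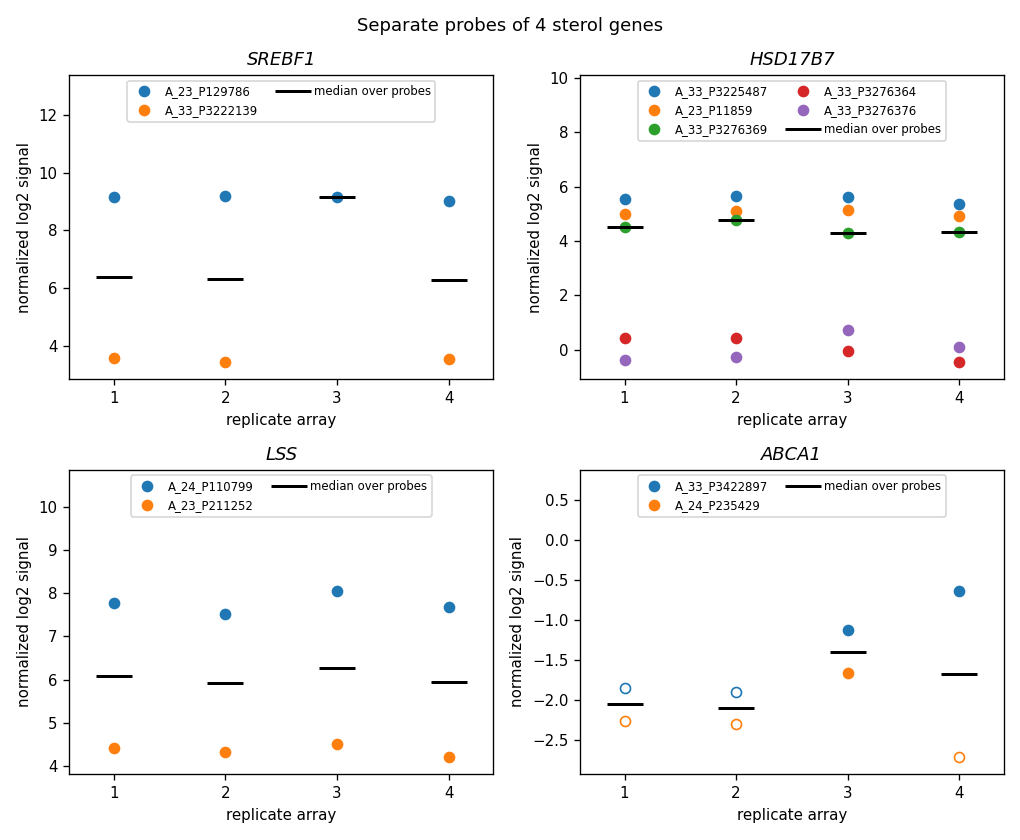
Normalized log2 signal (y axis) of each probe of SREBF1, HSD17B7, LSS and ABCA1 on the 4 replicate arrays (x axis). Values are relative to the array's median over probes with a signal above 0. Symbols are filled where well above background and hollow where not, with a black dash for the median over the probes. The dash of SREBF1 on replicate 3 coincides with its upper probe because the lower probe has no value there, and the ABCA1 probes are filled on replicates 3 and 4 or on replicate 3 alone.

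Of the transport genes, STARD4 and MYLIP spanned less than 1.4-fold under the scaling used here, and the efflux pumps were at low signal. STARD4, which carries cholesterol between membranes, had values of 4.78, 4.98, 5.19 and 4.86 (4.95 ± 0.18). MYLIP, a ubiquitin ligase that directs lipoprotein receptors to degradation, had values of 3.35, 3.55, 3.67 and 3.35 (3.48 ± 0.16). Both were highest on replicate 3 and stayed within 1.33-fold. ABCG1, a sterol efflux pump, had values of 0.04, -0.46, -0.67 and -0.48 (-0.39 ± 0.30), with replicate 1 the highest and replicate 3 the lowest. Relative to the median over all probes its mean was 0.70. Its span of 1.64-fold was 1.44-fold without replicate 3, and it was the only 1 of the 28 genes still above 1.4-fold without that array.

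ABCA1, the pump that loads cholesterol onto apolipoproteins, had values of -2.06, -2.10, -1.40 and -1.68 (-1.81 ± 0.33). It was not well above background on replicates 1 and 2. Probe A_33_P3422897 was well above background on replicates 3 and 4, with linear signals of 21.4, 18.8, 32.1 and 40.8. The other probe was so on replicate 3 alone, with 16.0, 14.2, 22.1 and 9.65. The probes disagreed on replicate 4, which was the highest array of the former and the lowest of the latter. All 29 genes counted as detected when the software's flag for a positive and significant signal was used in place of the stricter flag. The share of all gene names with that looser flag is not given here, so the count describes these genes only.

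More than 1.4-fold separated the highest from the lowest array in 7 of the 28 genes (25.0%), against 46.4% of all 19083 detected genes. The shares were alike after quantile normalization, at 14.3% of the sterol genes (4 of 28) and 15.5% of all. The 7 were MVD, IDI1, GGPS1, LBR, TM7SF2, SREBF1 and ABCG1, of which 5 are enzymes, 1 a regulator and 1 a transport gene. The regulator, SREBF1, is among them only through the outlier spot left out on replicate 3. With outlier spots kept, the count was 6 of 28 (21.4%, against 45.4% of all) and held no regulator. With the processed signal, IDI1 and GGPS1 were both below that fold, at 1.31. After quantile normalization, IDI1 (1.21), GGPS1 (1.23), LBR (1.28) and ABCG1 (1.22) were below it and HSD17B7 (1.48) above, which makes 4 genes above it in all. When each array was centred over all its probes, TM7SF2 was below at 1.32, while CYP51A1 (1.45), INSIG1 (1.44), MBTPS1 (1.41) and STARD4 (1.45) were above. The count was then 10 of 28 (35.7%), against 51.4% of all. The median SD was 0.17 over the 28 genes and 0.21 over all detected genes. Without replicate 3, 1 of 28 (3.57%) exceeded 1.4-fold, against 21.6% of all, and the median SDs were 0.09 and 0.15. These are descriptions over lists of unequal level and probe number, without a test.

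**Figure D3:**
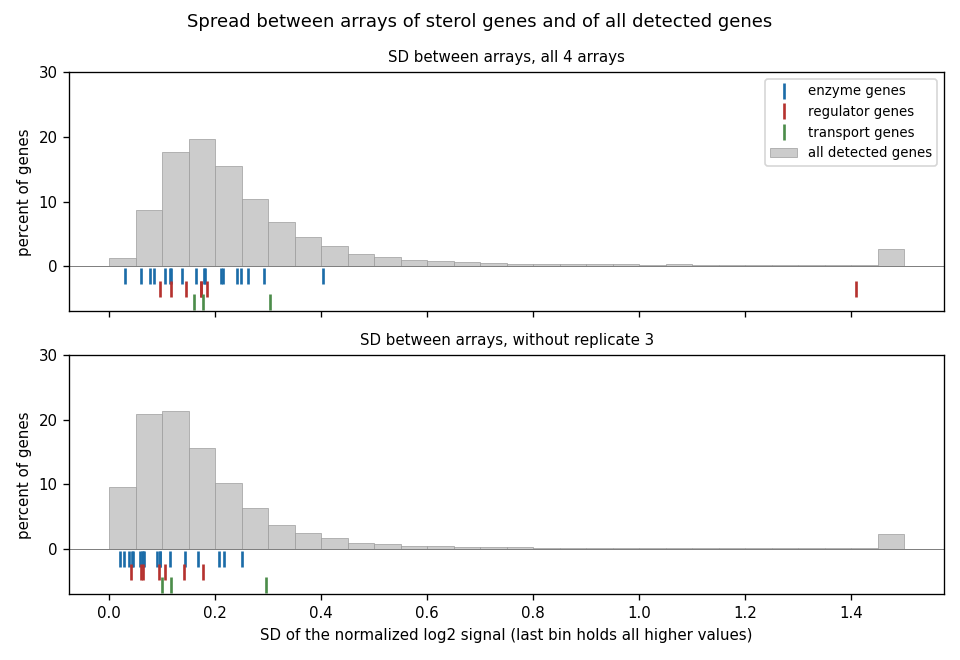
SD of the normalized log2 signal between arrays (x axis) for all 19083 detected genes (grey bars, percent of genes) and for the 28 detected sterol genes (ticks by role), over 4 arrays in the upper panel and without replicate 3 in the lower. The ticks lie mostly within the bulk of the bars, and SREBF1 is the tick at 1.41 in the upper panel.

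Replicate 3 was the highest array in 19 of the 28 sterol genes (67.9%), made up of 12 enzymes, 5 regulators and 2 transport genes, against 48.5% of all detected genes. Replicate 4 was the highest in 0 of 28, against 6.18%, and the lowest in 13, against 35.1%. Replicate 3 was the lowest in 4 (MVD, TM7SF2, HSD17B7 and ABCG1), against 23.2%. These shares depended on the scaling and on the outlier spots. With outlier spots kept, replicate 3 was the highest in 18 of 28 (64.3%, against 48.4% of all) and the lowest in 5 (17.9%, against 23.2%). With the processed signal relative to the 75th percentile, replicate 3 was the highest in 15 of 28 (53.6%, against 40.5% of all) and the lowest in 8 (28.6%, against 32.8%). After quantile normalization it was the highest in 12 (42.9%, against 36.5%) and the lowest in as many (12, against 34.0% of all). Replicate 4 was lowest in 1 gene with the processed signal (12.5% of all) and in 1 when each array was centred over all its probes (9.28% of all). The median deviation of the enzymes from their means was -0.06, 0.00, 0.12 and -0.11 on replicates 1 to 4, and that of the regulators -0.10, 0.01, 0.22 and -0.15. Over all detected genes it was -0.03, 0.03, 0.10 and -0.10, with replicate 3 the highest and replicate 4 the lowest in all 3 sets. The regulator median of 0.22 on replicate 3 counts SREBF1 at 2.11, a value due to the outlier spot left out there. The SREBF1 probe with a value on all arrays deviated by 0.01 on replicate 3. With that probe alone, the middle regulator on replicate 3 would be SREBF2, at 0.09.

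**Figure D4:**
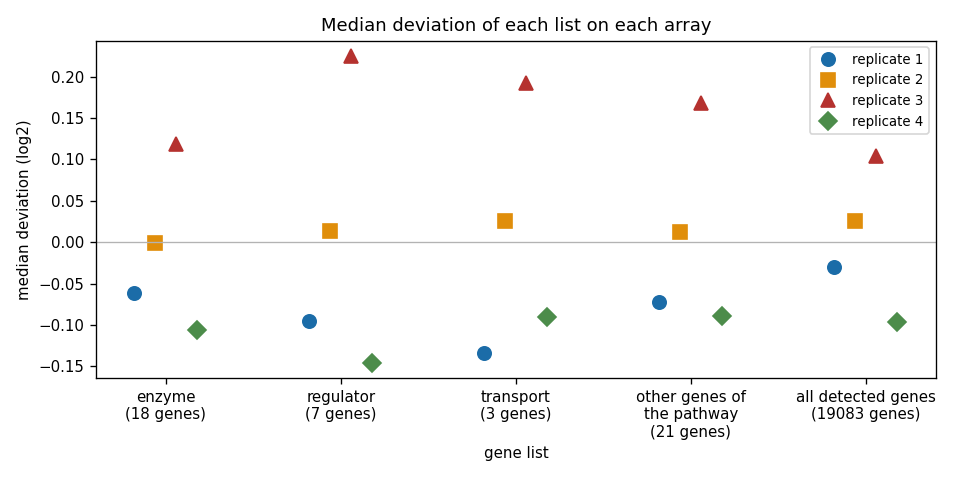
Median deviation from each gene's mean over 4 arrays (y axis, log2) for the enzymes, regulators, transport genes, other genes of the pathway and all detected genes (x axis), with 1 symbol per replicate array. In every list replicate 3 is the highest symbol, at 0.12 for the enzymes, 0.22 for the regulators and 0.10 for all detected genes. The regulator value of 0.22 depends on the SREBF1 outlier spot left out on replicate 3.

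As means over a list, the 18 enzymes deviated by -0.03, 0.04, 0.10 and -0.10 on replicates 1 to 4, an SD of 0.09. The 3 detected transport genes deviated by 0.04, 0.01, 0.05 and -0.10, an SD of 0.07. The 7 regulators deviated by -0.14, -0.06, 0.42 and -0.21, an SD of 0.29. The SD of the regulators was 0.11 with only probes that had a value on all 4 arrays, a choice that changed SREBF1 alone among them.

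The GC content of the probes moved with these deviations. Over the 35 probes of sterol genes detected with a value on all arrays, Spearman's rho between GC content and deviation was 0.61, 0.08, -0.50 and 0.22 for replicates 1 to 4. Over 24633 probes of all genes it was 0.44, 0.10, -0.44 and 0.17. On replicate 3 the median deviation was 0.00 for the 13 sterol probes with at least 45% GC and 0.19 for the 22 below. The probes behind the 4 genes lowest on replicate 3 were all of at least 45% GC, with 55% for MVD and for HSD17B7 probe A_33_P3276369, 50% for ABCG1 and 45% for TM7SF2. Other probes of at least 45% GC lay above their means there, among them those of DHCR7 (45% GC, 0.27), MVK (55% GC, 0.14), EBP and SREBF2. The part of GC content in these differences was not tested. Probes of 1 array share its labelling and scan, and the limit of 45% was set after seeing the values.

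**Figure D5:**
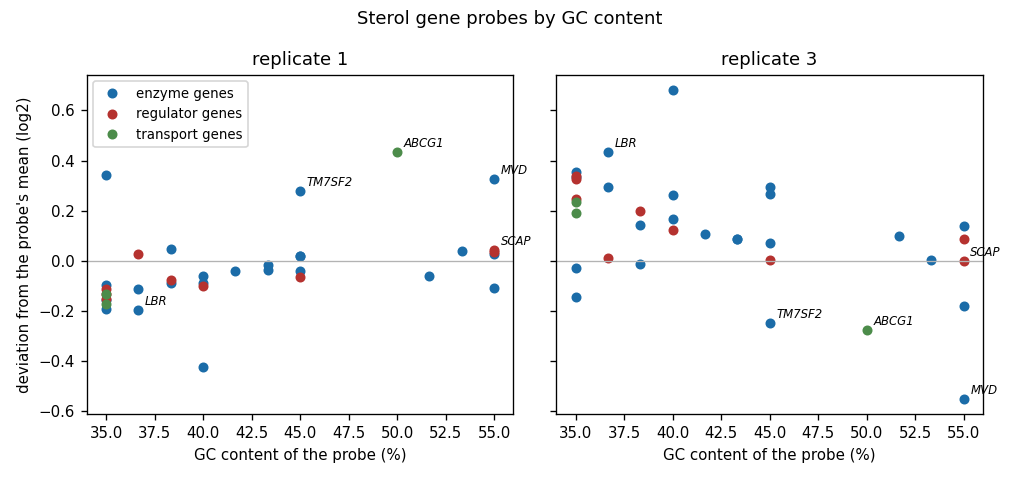
Deviation of each sterol gene probe from its mean over the arrays (y axis, log2) against its GC content (x axis, percent) on replicates 1 and 3, coloured by the role of the gene. Points slope upwards on replicate 1 (rho 0.61) and downwards on replicate 3 (rho -0.50), where MVD is the lowest point.

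Most other genes of the pathway were detected too. A further 22 genes belong to sterol synthesis, sterol sensing, storage and transport and the fatty acid arm of the SREBP program. Of these, 21 were detected on all 4 arrays, against 52.5% of all gene names. More than 1.4-fold was spanned by 7 of the 21 (33.3%, against 46.4% of all detected genes). Without replicate 3 it was 2 (9.52%, against 21.6%). The median SD of the 21 genes was 0.16, against 0.21 over all detected genes. FADS1, a fatty acid desaturase, was detected on 3 arrays because its only spot on replicate 3 was marked as an outlier. FADS2, the other desaturase of this pair and 1 of the 7, had values of 2.68, 2.62, 0.64 and 0.97 (SD 1.07). The spot of 1 of its 2 probes was marked as an outlier and left out on replicates 3 and 4. With outlier spots kept that probe had 4.21, 4.25, 4.46 and 4.19, and the other probe had 1.14, 0.99, 0.64 and 0.97. The fall of the FADS2 value on replicates 3 and 4 thus came from the spots left out. FADS2 is among the 7, and among the 2 without replicate 3, only for that reason. NR1H2, a sterol-sensing nuclear receptor, had values of 2.94, 3.03, 2.07 and 2.65 (SD 0.44). SCD, the stearoyl-CoA desaturase, had values of 6.12, 6.41, 5.42 and 5.78 (SD 0.43). NR1H2 and SCD were both lowest on replicate 3, the array on which 14 of the 21 genes were highest (66.7%, against 48.5% of all detected genes).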

How the data were processed

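Per the file headers, the scanner output of each array, as the authors deposited it, came from Agilent Feature Extraction 10.7.3.1. It gives background-subtracted spot intensity in linear units, and the authors had not yet normalized it between arrays. The deposited files also hold flags (0 or 1) for spots well above background, positive and significant, saturated or outlying. No spot was saturated (0). The labels name 100 ng of RNA per labelling reaction.

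Control and outlier-marked spots were left out, spots of a probe averaged, log2 taken, the median over non-control probes of the array subtracted, and the median over a gene's probes taken. Probe signals at or below 0 were left out before the array median was taken. Detection of a probe required the flag for well above background on over 50% of its spots. With 1 group there is no contrast, so no test was made, and the number of arrays (4) limits the precision. The design text calls the cultures biological replicates. The members and lists were chosen with earlier results of these data known.

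All 7 regulators and 4 transport genes, the 4 enzymes of largest and 3 of smallest SD, and members whose probes disagreed or were partly detected, are described in full. Of the other genes of the pathway, those detected on no array and the 3 of largest SD were to be named. SC4MOL was found as MSMO1. Alternatives were the processed signal relative to the 75th percentile, normexp (offset 50) with quantile normalization in limma 3.58.1, other probe filters, outlier spots kept, other detection flags and each array left out. Centring over all probes was applied to some results after seeing the data. The spread statistics were tested on simulated data. Python 3.11.15, numpy 2.4.6, pandas 2.3.3, scipy 1.17.1, matplotlib 3.10.9 and R 4.3.3 were used.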

Additional observations from a re-analysis of the deposited data

Results flagged for a closer look

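The normalized log2 signal of SREBF1 on replicate 3 lay apart from the other 3 arrays, with a gap to the nearest of them that made up 0.972 of the range of the 4 values. It was the only 1 of 53 values looked at in this way, and chance marks about 5% of groups of this size. The spot of 1 of its 2 probes was left out as an outlier on that array, and the mark was absent when outlier spots were kept or when probes lacking a value on any array were dropped.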

How the results depend on the processing

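Of the 29 sterol genes, 28 were detected with any 1 array left out (28 to 28), 29 with the positive-and-significant flag and 27 when more than 50% of a gene's probes had to be detected. For detection and for 1 array apart, shares over all genes are given only with the main settings, at 52.5% and 8.48%. Leaving out each array gave 1 to 7 genes above 1.4-fold, median SDs of 0.0947 to 0.195, and SDs of the list mean of 0.0633 to 0.102 for enzymes, 0.0755 to 0.348 for regulators and 0.0210 to 0.0858 for transport genes. The lowest values came without replicate 3 for the count, the median SD and the regulators, and without replicate 4 for the others. The share of all detected genes above 1.4-fold is given only without replicate 3, at 21.6%. The counts with another array left out describe these genes only. With the processed signal, 4 genes had 1 array apart and the enzyme SD was 0.020. After normexp and quantile normalization, 4 genes exceeded 1.4-fold (14.3%, against 15.5% of all), the median SD was 0.0944, 3 genes had 1 array apart, and the SD was 0.0574 for enzymes and 0.0162 for transport genes. With only probes well above background on all arrays, and with only probes that had a value on all arrays, 0 genes had 1 array apart and the regulator SD was 0.106. With outlier spots kept these were 0 and 0.0998. Centring over all probes, added after seeing the data, gave an enzyme SD of 0.106 and 10 genes above 1.4-fold (35.7%, against 51.4% of all). MVD exceeded 1.4-fold under every alternative of scaling. It was measured by 1 probe of 1 spot per array, so the choice of probes could not alter this. Without replicate 3, MVD spanned 1.30-fold. Levels of all 29 genes changed with the processed signal and with quantile normalization, which use another zero, and centring over all probes raised the mean of all 29 by 1.09. Other causes were not tested. No paired analysis was possible because the untreated samples were not analysed here and 1 group remained. Genes near background, ABCA1 first, are limited by their signal over background.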
